A study of Homo sapiens with 5 samples.

Results

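The integrated stress response genes described here are 10 genes, *ATF4*, *DDIT3*, *TRIB3*, *CHAC1*, *DDIT4*, *SESN2*, *ASNS*, *PSAT1*, *PHGDH*, and *CEBPZ*, out of 27328 genes with a row in the count table. They were chosen by name as genes of the *ATF4* axis, by a rule that holds no measured value, and each was found by its Ensembl identifier. Earlier results of these data were known when the list was chosen. A total of 8 of the 10 had enough counts to be tested among 14391 genes. *CHAC1* and *ASNS* did not. Among the 8, only *PSAT1* was significantly higher in *MTSS1* knockout cells than in control cells, none was significantly lower, and *ATF4* itself differed more between the control pools than between the groups.

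The expression of these genes was measured by RNA-seq in TF-1, a human acute myeloid leukemia cell line that grows in the presence of GM-CSF, to see how loss of *MTSS1* alters gene expression. Control cells (2 libraries, sgCtrl pools 1 and 2) carried an sgRNA against *renilla luciferase*, and knockout cells (3 libraries) carried sgMTSS1_1, sgMTSS1_2, or sgMTSS1_3, so that each knockout library has its own guide. Both groups were derived with Cas9 from the same line, and neither received a drug before RNA was taken. Each library is 1 pool of 4 single-cell clones. A difference between pools may thus come from a few clones, and in bulk RNA fewer expressing cells and less RNA per cell cannot be told apart. By the study's methods, a further sgCtrl pool and an sgMTSS1_4 pool were left out as outliers; they were not analysed here.

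In the integrated stress response, kinases that sense amino acid shortage, unfolded proteins, heme shortage, or double-stranded RNA phosphorylate the translation initiation factor eIF2α. This lowers protein synthesis in general but raises translation of the *ATF4* mRNA, whose upstream open reading frames otherwise hold it back. The ATF4 protein then activates genes for amino acid synthesis and transport, for tRNA charging, and for stress effectors such as DDIT3 (CHOP). Much of the control of ATF4 is thus on its protein, which RNA-seq does not measure, and the genes it activates are usually read in its place. Some of these genes encode enzymes and transporters that supply a cell with serine, asparagine, and other amino acids.

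Libraries were prepared from the 3′ ends of mRNAs, so that the count of a gene follows its number of molecules and not its length. The total counts were between 2849979 and 3408827 in the control pools and between 5442639 and 8854899 in the knockout pools, and depth and condition therefore cannot be told apart by the libraries alone. Levels are given as CPM, the counts scaled to a common library size by the TMM factors, for which 3 counts correspond to between 0.389 and 0.938 CPM depending on the library. Values are listed with sgCtrl pool 1 before sgCtrl pool 2 and with the knockout pools in the order of their guides, sgMTSS1_1, sgMTSS1_2, and sgMTSS1_3. All 12 genes listed as markers of TF-1 cells had counts in every library, and 0 were called. Their summed levels were 1314 and 1760 CPM in the control pools and 1222 to 1529 CPM in the knockout pools. Single markers shifted within that sum, and some are named for their values. *CD34* was at 132 and 112 CPM in the sgCtrl pools and at 214, 345, and 168 CPM in the knockout pools. *GATA1* was at 110 and 80.8 against 56.4, 62.6, and 75.2 CPM, and *HBG2* at 286 and 819 against 222, 42.1, and 344 CPM. The mRNA of *MTSS1* was at 204 and 87.9 CPM in the sgCtrl pools and at 104, 139, and 49.9 CPM in the knockout pools. The groups overlap, the log2-fold change was −0.58 ± 0.47 (standard error), and the adjusted p was 0.494. An sgRNA can disrupt a protein and leave the mRNA in place, so these counts do not check the knockout, which the study's methods assign to immunoblots.

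Differential expression between the 3 knockout and the 2 control pools was assessed by the quasi-likelihood test of edgeR, with p-values adjusted by Benjamini-Hochberg over all 14391 genes. A gene was called where the adjusted p was under 0.05 and the log2-fold change over 1 or under −1. By this rule 1 of the 8 tested stress response genes was higher in knockout cells, beside 4.17% of all tested genes, and 0 of 8 were lower, beside 1.01% of all tested genes. At an unadjusted p under 0.05, 3 of the 8 genes passed, namely *PSAT1*, *TRIB3*, and *CEBPZ*, beside 23.3% of all tested genes. DESeq2 called the same 3 genes higher, beside 7.02% of all tested genes, and 0 lower, beside 2.31%. The log2-fold change was above 0 for 6 genes and below 0 for 2, with a median of 0.37, while the median over all tested genes was −0.03. In 3 of the 8 genes all knockout pools lay above both control pools, which was the case for 22.2% of all tested genes, and in 0 of 8 all lay below, the case for 19.2%. With 8 genes and 3 pools against 2, these counts describe the list and single out nothing about it.

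**Figure D1:**
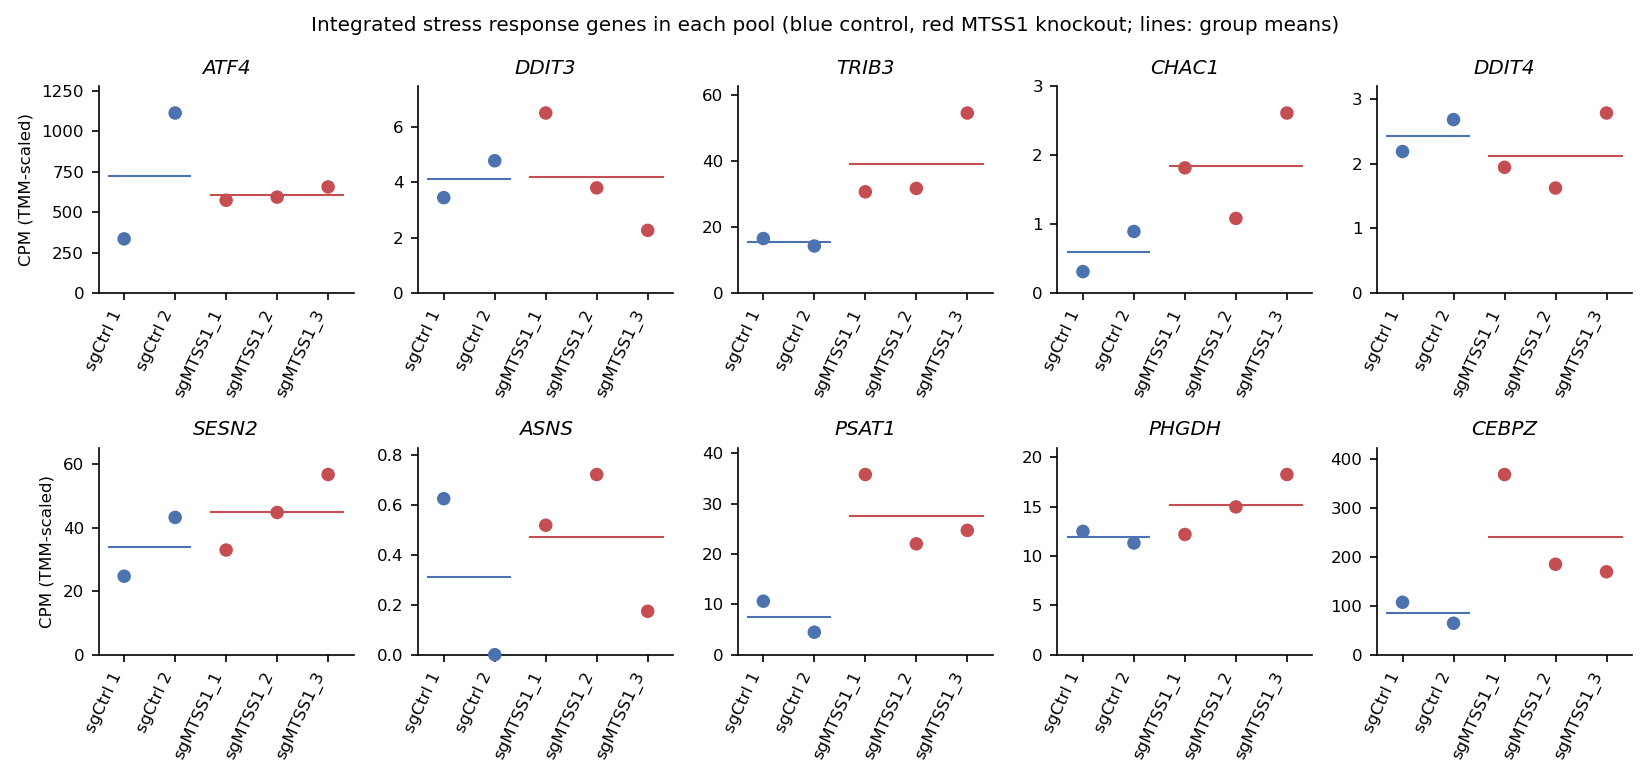
Levels of the 10 integrated stress response genes in each of the 5 pools, in TMM-scaled CPM on an axis that starts at 0 and differs between genes. Points are single libraries, and lines are the means of the 2 control pools (blue) and of the 3 knockout pools (red). *TRIB3*, *CHAC1*, *PSAT1*, and *CEBPZ* show every knockout point above both control points, whereas for *ATF4* the knockout points lie between the control points.

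Of the regulators, *ATF4* (ENSG00000128272, GRCh38 chr22:39519695-39522683, plus strand) encodes the central transcription factor of the response. Its level was 335 CPM in sgCtrl pool 1 and 1112 CPM in sgCtrl pool 2, against 573, 593, and 656 CPM in the knockout pools. All 3 knockout pools thus lay between the control pools and close to each other: the highest knockout pool was 1.14-fold over the lowest, while sgCtrl pool 2 was 3.32-fold over sgCtrl pool 1. The log2-fold change was −0.25 ± 0.46, with an adjusted p of 0.787. Its sign rested on a single control library: without sgCtrl pool 2 it was 0.88 (adjusted p = 0.143), and without sgCtrl pool 1 it was −0.86. These values, each with 1 control library left, assume that it varies like the knockout libraries. The lowest count behind *ATF4* was 1072, in sgCtrl pool 1.

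A gap of more than 2-fold between the control pools was not particular to *ATF4*. Genes were sorted by whether sgCtrl pool 2 was more than 2-fold above sgCtrl pool 1, after 0.5 CPM was added to both. Of the 8 tested stress response genes 1, *ATF4*, qualified, beside 13.5% of all tested genes. The share of all genes with a gap as large as the 3.32-fold of *ATF4* was not counted. *PSAT1* went the opposite way, with sgCtrl pool 2 at 0.42 times the level of sgCtrl pool 1. *ATF4* also has 4 pseudogenes named after it. Reads that map to several places were removed by the authors, and the part of this step in the measured level was not tested.

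*DDIT3* (ENSG00000175197, chr12:57516588-57521737, minus strand) encodes CHOP, the factor that turns prolonged stress toward cell death. It was at 3.44 and 4.77 CPM in the sgCtrl pools and at 6.49, 3.79, and 2.26 CPM in the knockout pools. The sgMTSS1_1 pool held the highest and the sgMTSS1_3 pool the lowest of the 5 values, so that the knockout pools enclosed the controls. These levels rest on 11 and 16 control counts and on 50, 21, and 13 knockout counts, and the log2-fold change of 0.04 ± 0.56 (adjusted p = 0.975) had no stable sign. *DDIT3* shares 355 of its 1307 exonic bases with *MARS1* on the opposite strand, 68 of them within the last 500 bases of its 3′ end, and whether the counting used strand is not given in the sources used here. The low level of *DDIT3* limits what these libraries can show: the estimate within its standard error covers log2-fold changes on both sides of 0.

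Among the feedback and stress effectors, *TRIB3* (ENSG00000101255, chr20:362835-397559, plus strand) encodes a pseudokinase that ATF4 and CHOP induce and that in turn restrains ATF4. The control pools were close to each other, at 16.6 and 14.3 CPM, and the knockout pools were at 30.7, 31.8, and 54.6 CPM. Every knockout pool lay above both controls, and the mean of the knockout pools was 2.53 times that of the control pools. The log2-fold change was 1.34 ± 0.37 and the adjusted p 0.0691, which missed the threshold. The adjusted p passed with DESeq2 (0.0279) and without a filter on low counts (0.0246), and over all 15 alternatives it ranged from 0.0246 to 0.228. Leaving out single libraries kept the log2-fold change between 1.06 and 1.51, with the lowest value in the absence of the sgMTSS1_3 pool, the highest of the 5 libraries.

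*CHAC1* (ENSG00000128965, chr15:40952962-40956512, plus strand), the stress-induced enzyme that degrades glutathione, was too low to be tested. Control libraries held 1 and 3 counts and knockout libraries 14, 6, and 15, corresponding to 0.313 and 0.894 CPM against 1.82, 1.08, and 2.61 CPM. All knockout pools lay above both controls, and both controls were at or below the level of 3 counts. From the summed counts, 4 in control and 35 in knockout libraries, the ratio of the rates was 3.02, with an exact 95% interval of 1.08 to 11.7 that covers counting error only and not the spread between pools. As reads carry no molecular identifiers, even the counting error is a lower limit.

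*DDIT4* (ENSG00000168209, chr10:72273919-72276036, plus strand) and *SESN2* (ENSG00000130766, chr1:28259518-28282491, plus strand) encode stress-induced inhibitors of mTORC1. *DDIT4* was at 2.19 and 2.68 CPM in the control pools and at 1.95, 1.62, and 2.78 CPM in the knockout pools, from 7 to 16 counts per library. *SESN2* was at 24.7 and 43.2 CPM in the control pools and at 32.9, 44.8, and 56.7 CPM in the knockout pools. Both genes overlapped between the groups. The log2-fold change was −0.20 ± 0.56 for *DDIT4* (adjusted p = 0.866) and 0.40 ± 0.37 for *SESN2* (adjusted p = 0.559), so that in neither gene was a difference detected beyond the spread between pools. For *SESN2*, sgCtrl pool 1 was the lowest of the 5 libraries, as it was for *ATF4* and *CHAC1*. This pool also had the highest share of counts in mitochondrially encoded genes, 13.9% against 6.71% to 8.63% in the other 4 libraries, and the part of that in these levels was not tested.

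Of the amino acid synthesis genes, *PSAT1* (ENSG00000135069, chr9:78297125-78330093, plus strand) was the only stress response gene called by the edgeR test. It encodes phosphoserine aminotransferase, which carries out the middle step of serine synthesis from a glycolytic intermediate. The control pools were at 10.6 and 4.47 CPM, and the knockout pools at 35.8, 22.0, and 24.7 CPM. The lowest knockout pool was thus above the highest control pool, with sgMTSS1_1 the highest and sgCtrl pool 2 the lowest library. The means were 7.55 ± 4.36 CPM (SD, n = 2) and 27.5 ± 7.30 CPM (SD, n = 3), a ratio of 3.64, and the log2-fold change was 1.87 ± 0.45, with an adjusted p of 0.0461.

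The call on *PSAT1* was close to the threshold and was lost under several settings, while the direction was kept in all of them. The adjusted p was 0.0976 without sgCtrl pool 2, where the log2-fold change was 1.40, and 0.146, 0.0704, and 0.0940 without the sgMTSS1_1, sgMTSS1_2, and sgMTSS1_3 pool. Without sgCtrl pool 1 the log2-fold change was 2.63, with an adjusted p of 0.0200. The adjusted p was 0.0553 when levels were scaled by library size alone, 0.0537 with upper-quartile factors, and 0.0555 after all libraries were thinned to the smallest total. The sgMTSS1_1 pool also had the largest total and the highest share of counts in ribosomal protein genes, 17.7% against 7.55% to 13.9% in the other 4 libraries. The part of that in the level of *PSAT1* was not tested. *PSAT1* also has 4 pseudogenes named after it.

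*PHGDH* (ENSG00000092621, chr1:119648411-119744218, plus strand) encodes the dehydrogenase of the step before *PSAT1* and is usually induced along with it. It was at 12.5 and 11.3 CPM in the control pools and at 12.2, 15.0, and 18.3 CPM in the knockout pools. The sgMTSS1_1 pool, which was highest for *PSAT1*, lay between the controls for *PHGDH*. The log2-fold change was 0.34 ± 0.35 (adjusted p = 0.605). The difference between the changes of *PSAT1* and *PHGDH* was not tested.

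*ASNS* (ENSG00000070669, chr7:97851677-97872542, minus strand), which encodes asparagine synthetase and is among the most used readouts of ATF4, had almost no counts. Control libraries held 2 and 0 counts and knockout libraries 4, 4, and 1, or 11 in all. The value of 0 in sgCtrl pool 2 allows a level of up to 0.894 CPM. The ratio of the summed counts was 1.55, with an exact 95% interval of 0.321 to 14.8, so that neither a rise nor a fall could be seen at this depth. In the annotation, *ASNS* shares 2415 of its 4896 exonic bases (49.3%) with a long noncoding transcript on the same strand, ENSG00000284707, and the shared bases include 489 of the last 500 at its 3′ end, where the reads of this assay fall. That transcript itself held 0 to 2 counts per library, and *ASNS* has 4 pseudogenes named after it. The part of this overlap in the low counts was not tested, and the counts therefore do not show whether *ASNS* was expressed.

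*CEBPZ* (ENSG00000115816, chr2:37201612-37231596, minus strand) encodes a nucleolar protein that binds CCAAT sequences and takes part in ribosome assembly. It is in the list by name only: "C/EBP zeta" is also an older name of the CHOP protein, which is encoded by *DDIT3*. *CEBPZ* was at 107 and 64.4 CPM in the control pools and at 369, 185, and 170 CPM in the knockout pools. All knockout pools lay above both controls, with the sgMTSS1_1 pool 2.17-fold over the lowest of the knockout pools. The log2-fold change was 1.49 ± 0.43, and the adjusted p of 0.0781 missed the threshold in the test on all 5 pools.

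The adjusted p of *CEBPZ* passed with DESeq2 (0.0152), without a filter on low counts (0.0149), and without sgCtrl pool 1 (log2-fold change 1.92, adjusted p just under the threshold), and over all 15 alternatives it ranged from 0.00851 to 0.183. Its lowest log2-fold change, 1.04, was obtained without the sgMTSS1_1 pool, in which its level was highest. That pool also had the largest total and the highest share of ribosomal protein counts. The part of these in the level of *CEBPZ* was not tested. *CEBPZ* shares 351 of its 3512 exonic bases with *CEBPZOS* on the opposite strand, 297 of them within the last 500 bases of its 3′ end, and 408 with the noncoding ENSG00000272054, also on the opposite strand, 67 of them within the last 500. *CEBPZOS* was at 41.0 and 58.1 CPM in the sgCtrl pools and at 68.6, 54.9, and 48.4 CPM in the knockout pools, with a log2-fold change of 0.21 and an adjusted p of 0.736. ENSG00000272054 held 6 to 19 counts per library, with a log2-fold change of −0.78 (adjusted p = 0.507). The adjacent *NDUFAF7* had a log2-fold change of −0.11 (adjusted p = 0.858). None of these 3 genes was called. *DDIT3*, which bears the same protein name, had a log2-fold change of 0.04 against 1.49 for *CEBPZ*.

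**Figure D2:**
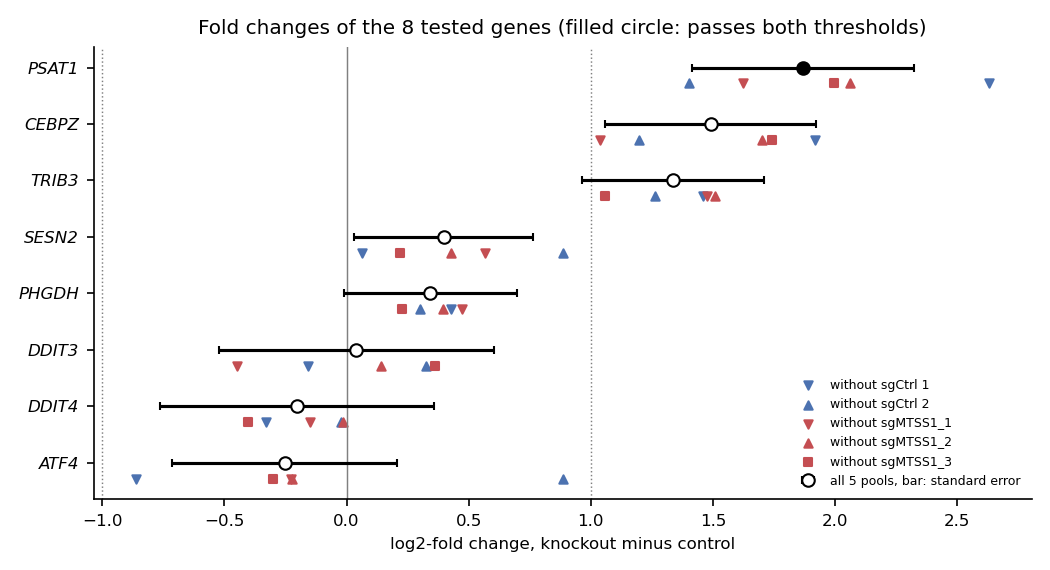
Log2-fold changes (knockout minus control) of the 8 tested genes. Circles with bars are the estimate over all 5 pools and its standard error, a filled circle marks the single gene that passed both thresholds (*PSAT1*), coloured symbols are the estimates with 1 pool left out, and dotted lines mark −1 and 1. *TRIB3*, *CEBPZ*, and *PSAT1* stayed above 1 whichever pool was left out, while *ATF4* and *DDIT3* fell on both sides of 0.

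Promoter windows of 250 bases before to 50 bases after annotated starts (RefSeq, GRCh38.p14) were found for all 10 genes and searched on both strands for 2 short motifs. The first, TGATGNAA, is the core of the C/EBP-ATF response element, to which dimers of ATF4 with C/EBP proteins bind, and it occurred in 1270 of 35116 windows (3.62%). The 10 genes have 15 windows, of which 2 held it. These belong to *ASNS* and *CHAC1*, the 2 genes with too few counts to test. These sites are shown because they are the only matches of the list, with the match in capitals and read 5′ to 3′ along the gene's strand. The *ASNS* match lies at chr7:97872469-97872476 on the minus strand, and that of *CHAC1* at chr15:40953262-40953269, where the motif is read on the strand opposite to the gene.
*ASNS*: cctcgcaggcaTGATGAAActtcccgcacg
*CHAC1*: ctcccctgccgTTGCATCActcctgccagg
The first base of the match lies 68 bases before the start in *ASNS* and 209 bases before it in *CHAC1*. A match is a description of the sequence, and the lack of one in the other 8 genes says only that these letters are not within this window.

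The second motif, CCAAT, occurred in 12155 of all windows (34.6%) and in 7 of the 15 windows of the 10 genes. These 7 windows belong to 6 genes, namely *SESN2*, *PHGDH*, *PSAT1*, *DDIT4*, *DDIT3*, and *CHAC1*. The *PSAT1* window held 3 matches, all read along the gene, which begin 113, 83, and 52 bases before the start. Its 250 bases before the start (chr9:78296875-78297124, plus strand) are shown because *PSAT1* is the one gene called, with the matches in capitals.
*PSAT1*: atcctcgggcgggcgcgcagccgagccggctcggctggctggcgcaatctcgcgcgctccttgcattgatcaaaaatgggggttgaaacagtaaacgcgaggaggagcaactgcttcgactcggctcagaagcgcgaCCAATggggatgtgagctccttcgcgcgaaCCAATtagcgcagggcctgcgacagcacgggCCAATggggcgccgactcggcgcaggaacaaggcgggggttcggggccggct
No window of *CEBPZ*, *TRIB3*, or *ATF4* held either motif.

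A wider list of 99 genes of the pathway, taken by role, placed these 10 genes in context. A total of 97 had a row in the table and 89 were tested, of which 2, *SLC1A5* and *MARS1*, were called higher and 0 lower by the same edgeR test. The genes called higher are 2.25% of the tested pathway genes, beside 4.17% of all tested genes. At an unadjusted p under 0.05, 21 of the 89 passed (23.6%), near the 23.3% of all tested genes. DESeq2 called 10 higher and 1 lower, beside 7.02% and 2.31% of all tested genes. Log2-fold changes were above 0 for 50 and below 0 for 39 genes, and their median was 0.06. All knockout pools lay above both controls in 25 genes (28.1%) and below both in 14 (15.7%), close to the 22.2% and 19.2% of all tested genes. In 11 of the 89 genes (12.4%) sgCtrl pool 2 was more than 2-fold above sgCtrl pool 1, near the 13.5% of all tested genes. In the roles below, counts of genes called stand beside 4.17% higher and 1.01% lower of all tested genes. Counts above and below 0 stand beside 48.3% and 51.7% of all tested genes. A role of few genes with 0 called therefore does not show that nothing changed.

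**Figure D3:**
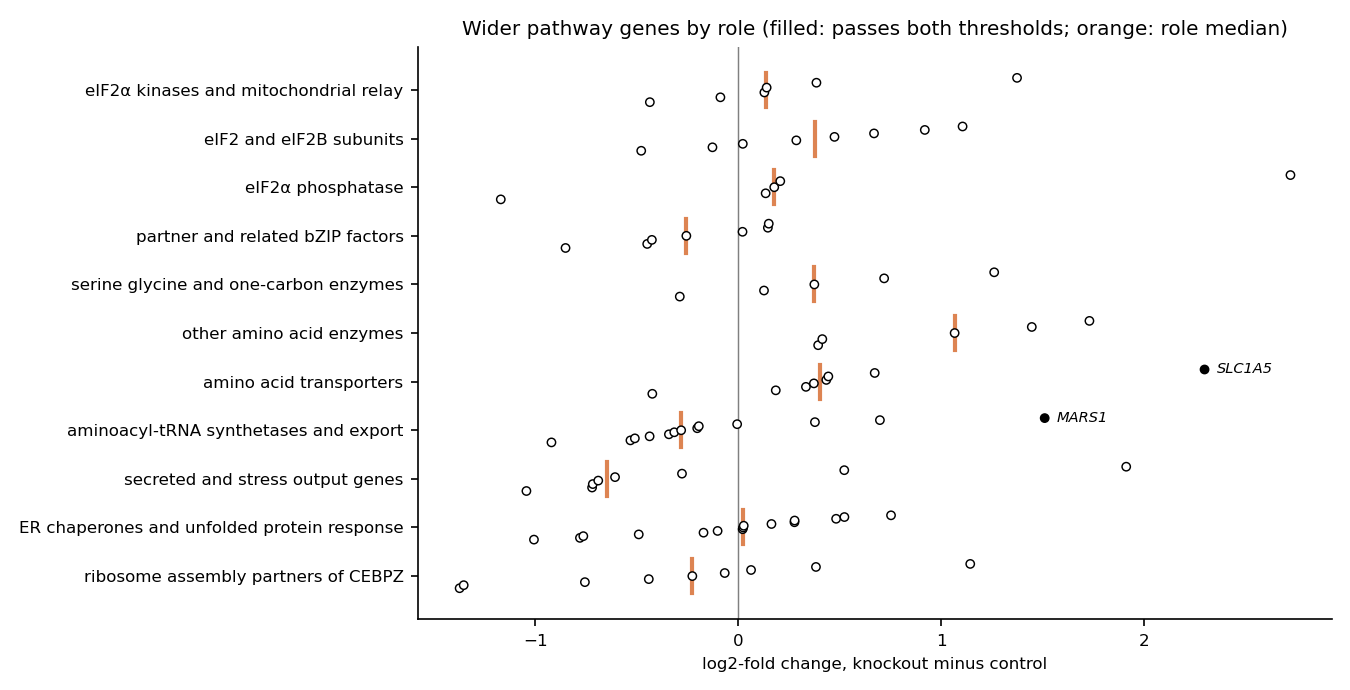
Log2-fold changes (knockout minus control) of the 89 tested genes of the wider pathway list, one point per gene, in rows by role. Filled points are the 2 genes that passed both thresholds, *SLC1A5* and *MARS1*, and orange bars are the medians of the roles, which lie between −0.65 for secreted and stress output genes and 1.07 for other amino acid enzymes.

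Upstream of *ATF4*, none of the 6 genes for eIF2α kinases and the mitochondrial relay and none of the 8 genes for eIF2 and eIF2B subunits was called. The largest positive value among the kinases was that of *EIF2AK3* (PERK, the kinase of the endoplasmic reticulum), at 2.19 and 3.58 CPM in the sgCtrl pools and 6.36, 7.76, and 8.53 CPM in the knockout pools. Its log2-fold change was 1.37 ± 0.47 with an adjusted p of 0.121, and the largest negative value was −0.44 for *EIF2AK2* (PKR, the kinase of double-stranded RNA). Of the eIF2 and eIF2B subunits, *EIF2B5*, the catalytic subunit of the exchange factor eIF2B, had the largest value. It was at 117 and 173 CPM in the sgCtrl pools and at 282, 323, and 332 CPM in the knockout pools, with a log2-fold change of 1.11 ± 0.32 and an adjusted p of 0.0772. *EIF2S2* (eIF2β) had the lowest, −0.48. The median over these subunits was 0.38, and 4 of 8 had all knockout pools above both controls, beside 22.2% of all tested genes.

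The phosphatase that reverses eIF2α phosphorylation has a constitutive and an inducible regulatory subunit. The constitutive one, *PPP1R15B*, was at 47.2 and 82.0 CPM in the sgCtrl pools and at 27.0, 33.0, and 26.1 CPM in the knockout pools. All knockout pools lay below both controls, with a log2-fold change of −1.17 ± 0.33 and an adjusted p of 0.0689. The inducible one, *PPP1R15A*, is named as its counterpart. It was at 32.5 and 38.4 CPM in the sgCtrl pools and at 39.8, 41.9, and 41.2 CPM in the knockout pools. Its knockout pools lay above both controls, with a log2-fold change of 0.21 ± 0.29 and an adjusted p of 0.710. The largest positive value, 2.72 ± 0.98 for the catalytic subunit *PPP1CA* (adjusted p = 0.137), rested on 5 and 2 counts in the control libraries and on 114, 10, and 27 counts in the knockout libraries. Both control counts were under the minimum count of 10, so the gene entered the test through its knockout libraries. Its positive value cannot be set apart from that filter. The last 500 exonic bases of *PPP1CA* include 230 that lie opposite *RAD9A*, and the part of this in the low counts was not tested. None of the 5 phosphatase genes was called. Of 7 tested partner and related bZIP factors, 0 were called, with a median of −0.26 and values from −0.85 for *JDP2* to 0.15 for *CEBPB*. *JDP2*, a repressor of the ATF family, showed the same order of control pools as *ATF4*, at 42.8 and 241 CPM in sgCtrl pools 1 and 2, and its knockout pools lay between them at 50.6, 74.6, and 111 CPM. *ATF3*, a frequent stress readout, had 1 to 5 counts per library and was not tested.

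Amino acid supply is the output branch to which *PSAT1* belongs. In this branch *SLC1A5*, the glutamine transporter ASCT2, rose from 70.4 and 59.9 CPM in the control pools to 257, 327, and 378 CPM in the knockout pools. The groups did not overlap, and the log2-fold change was 2.30 ± 0.33, with an adjusted p of 0.0109. *SLC1A5* was called under every setting tried, including each library left out in turn. The other 7 tested transporters were not called, with log2-fold changes down to −0.42 for *SLC1A4*, a close relative that carries serine and alanine, and the median over the 8 was 0.40.

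Of the 5 other tested serine, glycine, and one-carbon enzymes, 0 were called, and their median was 0.38. The highest was *MTHFD2*, the mitochondrial folate enzyme downstream of serine. It was at 55.0 and 24.7 CPM in the sgCtrl pools and at 125, 76.9, and 84.6 CPM in the knockout pools, the same order of pools as in *PSAT1*, with a log2-fold change of 1.26 ± 0.41 (adjusted p = 0.103). The lowest was *PSPH*, the phosphatase of the step after *PSAT1*, at 24.1 and 20.9 CPM in the sgCtrl pools and at 16.7, 15.2, and 23.3 CPM in the knockout pools. Its log2-fold change was −0.29 ± 0.33 (adjusted p = 0.653). The 3 enzymes of serine synthesis thus had log2-fold changes of 0.34 (*PHGDH*), 1.87 (*PSAT1*), and −0.29 (*PSPH*), and of these only *PSAT1* was called.

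The other amino acid enzymes had the highest median among the roles of the wider list, 1.07 over 5 tested genes. All 5 values were above 0, beside 48.3% of all tested genes, and 4 had every knockout pool above both controls, beside 22.2%. Of the 5, 0 were called. *ALDH18A1*, which starts proline synthesis from glutamate, was at 12.2 and 4.77 CPM in the sgCtrl pools and at 39.3, 19.5, and 25.4 CPM in the knockout pools, the same order of pools as in *PSAT1*. Its log2-fold change was 1.73 ± 0.49 (adjusted p = 0.0726). *GOT1* and *GPT2*, transaminases that link glutamate to aspartate and alanine, are named because of their values: their log2-fold changes were 1.07 ± 0.30 (adjusted p = 0.0683) and 1.45 ± 0.47 (adjusted p = 0.103). The lowest value, 0.39, was that of *CTH*, the enzyme that forms cysteine from cystathionine.

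**Figure D4:**
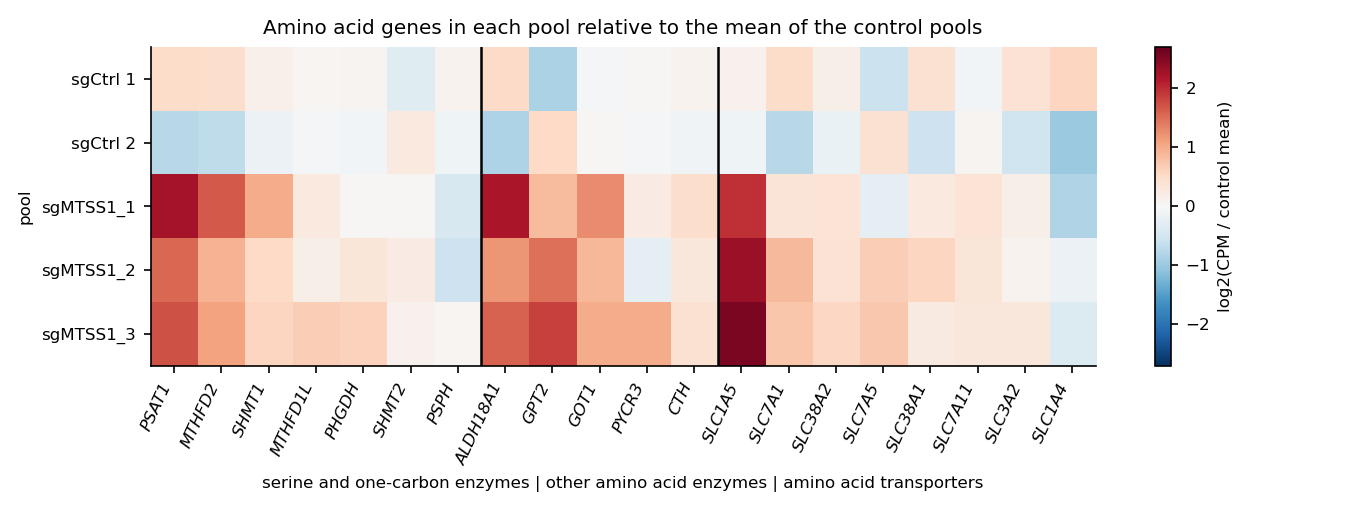
Levels of the 20 tested amino acid genes (columns) in each pool (rows), as log2 of the CPM over the mean of the 2 control pools, with red above and blue below that mean. *SLC1A5* and *PSAT1*, the genes called, have values of 1.98 to 2.54 and of 1.54 to 2.25 in the knockout pools. Single pools of genes not called were as dark, such as *ALDH18A1* in sgMTSS1_1 (2.21) and *GPT2* in sgMTSS1_3 (1.84). In the knockout pools *PHGDH* runs from 0.033 to 0.617 and *PSPH* from −0.567 to 0.053.

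Aminoacyl-tRNA synthetases, which charge tRNAs with amino acids and are usual targets of ATF4, had mostly negative values. Of 13 tested genes for synthetases and tRNA export, 10 had a log2-fold change below 0, beside 51.7% of all tested genes, and the median was −0.28. All knockout pools lay below both controls in 5 of the 13, beside 19.2% of all tested genes. The gene called was *MARS1*, the methionyl-tRNA synthetase, which rose from 33.5 and 33.4 CPM in the sgCtrl pools to 122, 76.7, and 87.0 CPM in the knockout pools. Its log2-fold change was 1.51 ± 0.33 with an adjusted p of 0.0328, and its call was lost without sgCtrl pool 2 (adjusted p = 0.0540) and without the sgMTSS1_1 (0.0934), sgMTSS1_2 (0.0589), or sgMTSS1_3 pool (0.0870). The last 500 exonic bases of *MARS1* include 355 that lie opposite *DDIT3*. *IARS1*, the isoleucyl-tRNA synthetase, had the lowest value, −0.92 ± 0.27 (adjusted p = 0.0827), at 87.9 and 79.0 CPM in the sgCtrl pools and 42.8, 46.8, and 42.6 CPM in the knockout pools.

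Among secreted and stress output genes, 0 of 8 tested were called, beside 4.17% higher and 1.01% lower of all tested genes. Of the 8, 6 were below 0, beside 51.7% of all tested genes, and the median was −0.65. *BBC3* (PUMA, a pro-apoptotic protein) had the highest value, 1.91 ± 0.55 (adjusted p = 0.0778), at 23.1 and 5.36 CPM in the sgCtrl pools and 37.1, 63.7, and 60.0 CPM in the knockout pools. *HMOX1* (heme oxygenase) had the lowest, −1.04 ± 0.65 (adjusted p = 0.374), with 7.82 and 61.4 CPM in sgCtrl pools 1 and 2, and 17.8, 21.3, and 11.3 CPM in the knockout pools. As for *ATF4*, the knockout pools of *HMOX1* lay between the controls. *STC2* and *FGF21* had no row in the table used, and *GDF15* and *VLDLR* were too low to be tested.

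The 15 genes of endoplasmic reticulum chaperones and the unfolded protein response had log2-fold changes on both sides of 0, 9 above and 6 below, with a median of 0.02, and 0 were called. Their values ranged from −1.01 ± 0.36 for the chaperone *CALR* (adjusted p = 0.130) to 0.75 ± 0.33 for *CRELD2* (adjusted p = 0.201). *HSPA5*, the chaperone BiP and the usual marker of stress in that organelle, is named for that use: it was at 123 and 132 CPM in the sgCtrl pools and at 129, 129, and 130 CPM in the knockout pools. Of 9 tested ribosome assembly partners of *CEBPZ*, 0 were called and 6 were below 0, beside 51.7% of all tested genes, with a median of −0.23. They ranged from −1.37 ± 0.45 for *NOC2L* (adjusted p = 0.106) to 1.14 ± 0.36 for *EBNA1BP2* (adjusted p = 0.0972), which was at 203 and 164 CPM in the sgCtrl pools and at 557, 311, and 348 CPM in the knockout pools, with the sgMTSS1_1 pool highest as for *CEBPZ*.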

How the data were processed

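RNA-seq was performed on 5 pools of TF-1 clones. Per the study's methods, the authors made 3′ mRNA libraries with a QuantSeq kit, trimmed single-end reads with BBDuk, aligned them to GRCh38 with HISAT2 2.1.0, and removed reads without a unique position with SAMtools 1.10. The authors deposited counts per Ensembl gene without normalization; the counting program, annotation release, and use of strand are not given in the sources used here. Groups were taken from the sample titles. Total counts per library were 2849979 to 8854899, and intervals cover counting error only.

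The counts were fitted with edgeR 4.0.16 in R 4.3.3 (filterByExpr with a minimum count of 10, TMM factors, glmQLFit with the condition alone, glmQLFTest, Benjamini-Hochberg adjustment). Standard errors are the log2-fold change divided by the root of the F statistic, and the common biological coefficient of variation was 32.2%. The test was tested on simulated data. Replicates are separate pools of clones of 1 line, and p-values measure the spread between these pools only. Gene names, positions, and exons came from GENCODE release 44 on GRCh38, and promoter windows from RefSeq. Figures were made in Python 3.11.15 with matplotlib 3.10.9.

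The genes, lists, and tests were chosen with earlier results of these data known. Named are all 10 genes, the overlapping and adjacent genes of *CEBPZ*, *MTSS1*, and, of each pathway role, the genes called and those with the highest and lowest log2-fold change. Further genes named for their values or their use are stated as such. Alternatives were DESeq2 1.42.0, limma-voom (limma 3.58.1) with and without quantile normalization, other scaling factors, other count filters, a block for the pool number, libraries thinned to the smallest total, other thresholds, and each library left out in turn.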

Additional observations from a re-analysis of the deposited data

How the results depend on the processing

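The number of genes called was 745 in all, with 1 of the 10 stress response genes and 2 pathway genes higher. With DESeq2 these were 1343, 3, and 10, with 1 pathway gene lower, without a filter on low counts 1374, 3, and 10, and at an adjusted p under 0.1 they were 1531, 3, and 7, with 1 pathway gene lower. Scaling by library size alone, upper-quartile factors, and thinned libraries each left 0 stress response genes called. Leaving out single libraries gave 111 to 1349 genes in all, 0 to 2 stress response genes, 1 to 6 pathway genes higher, and 0 to 7 pathway genes lower; where 1 control library was left, it is assumed to vary like the knockout libraries. The fewest genes, 111, were called without the sgMTSS1_1 pool and the most, 1349, without sgCtrl pool 1. The log2-fold change of *ATF4* ranged from −0.86 to 0.88 with single libraries left out. That of *DDIT3* ranged from −0.45 to 0.36, and was −0.071 with limma-voom, −0.12 with library size alone, −0.042 with upper-quartile factors, −0.11 with limma-voom after quantile normalization, and −0.045 in thinned libraries. The causes of these changes were not tested. The median over all genes went from −0.03 to −0.17 when library size alone set the scale. In all, 97 of 118 values of single stress response genes under alternatives kept their direction and their side of the threshold. This total includes genes far from the threshold. Of the others, 8 changed direction, 6 newly passed, and 7 no longer passed. These 7 are all values of *PSAT1*, the only gene called, out of its 15 alternatives. *DDIT4* gave no value with at least 10 counts in every library or in thinned libraries. The low totals of the control libraries limit what can be seen for *CHAC1*, *ASNS*, *DDIT4*, and *DDIT3*.

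The numbers 1 and 2 occur in both groups, but nothing says that pools of the same number were handled together, and the differences between pools 1 and 2 in the control and in the knockout correlated with r = 0.17 over 14391 genes. With a replicate block for this number, 2 stress response genes and 6 pathway genes were called higher. The sgMTSS1_3 pool has no control pool of its number, so it does not enter the fold changes of this fit. They rest on pools 1 and 2 of each group, which leaves little to measure the spread between pools. In this fit *CEBPZ* had a log2-fold change of 1.65 and an adjusted p of 0.00851. *TRIB3*, whose highest level was in the sgMTSS1_3 pool, had its lowest log2-fold change of all settings, 1.02, with an adjusted p of 0.173.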
